A study of Homo sapiens with 6 samples.

Results

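The genes described here encode the cytosolic translation initiation factors (eIF, gene symbols EIF1 to EIF6) and elongation factors (eEF, EEF1 and EEF2) as they were counted in PC3 cells, a human cell line from a bone metastasis of prostate cancer. The members were all gene symbols that begin with EIF1 to EIF6 or with EEF1 or EEF2. EIF1AX, EIF1AY, the EIF2AK kinases, the EIF4EBP genes, antisense genes and pseudogenes were left out. This gave 56 of the 24462 symbols in the count files, and each had a single row. RNA-seq was available for 6 PC3 cultures. Of these, 3 were transfected with a non-targeting siRNA (si-Control) and 3 with siRNA against CITED2, a coregulator that binds p300 and CBP (si-CITED2), at 80 nM, and were analysed after 72 h. All cultures were of the same line and differed in the siRNA alone as far as the labels say. The study lists a single siRNA sequence for CITED2, and states that the experiment was performed independently for each replicate.

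Initiation factors bring the small ribosomal subunit, the initiator tRNA and the capped mRNA together and select the start codon, and elongation factors deliver aminoacyl-tRNAs and move the ribosome along the mRNA. eIF2 carries the initiator tRNA and is recharged with GTP by eIF2B, which is the step that stress kinases block. eIF3 is the large scaffold on the small subunit, and the eIF4 factors bind the cap and unwind the 5′ end of the mRNA. Many mRNAs of this machinery start with a C followed by a run of pyrimidines, the 5′ terminal oligopyrimidine (TOP) tract, through which their translation responds to growth signals.

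The libraries held 19508925 to 28936374 counts, and 3 counts corresponded to 0.104 to 0.154 CPM, the count relative to library size. CPM were computed after TMM scaling, which corrects library sizes for differences in composition. CITED2 mRNA, the target of the siRNA, was at 36.4, 37.9 and 32.8 CPM in si-Control and at 46.0, 39.1 and 41.8 CPM in si-CITED2. The targeted mRNA was thus higher in the libraries labelled si-CITED2 (log2 fold change 0.24, SE 0.07, adjusted p = 0.0363, quasi-likelihood test of edgeR), so that the mRNA did not check the labels and directions below are between labels. The study checked the knockdown by immunoblot of the CITED2 protein, which is not part of the data analysed here. Leaving out a library gave CITED2 log2 fold changes from 0.17 to 0.29. The call was lost without si-Control replicate 1 or 3 (0.25 and 0.18) and without si-CITED2 replicate 1 or 3 (0.17 and 0.25). The epithelial genes KRT8, KRT18, KRT19, EPCAM and CD44 were each above 10 CPM, KLK2 had no count and KLK3 2 counts in all. A list of 4 erythroid genes (HBA1, HBA2, HBB and ALAS2) summed to 0.0377 to 0.205 CPM in si-Control and 4.74 to 6 CPM in the libraries labelled si-CITED2, and its part in the results was not tested. Lists for leukocytes and endothelium summed to at most 0.83 CPM in any library, and a fibroblast list to 5.51 to 5.74 CPM in si-Control and 6.13 to 7.44 CPM in the libraries labelled si-CITED2.

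The translation factor genes changed little. Those called with all libraries were lower in the libraries labelled si-CITED2, but only EEF2 stayed called whichever library was left out. Of the 55 members that passed the filter on low counts, 7 were called lower and 0 higher at an adjusted p under 0.05 (edgeR, adjusted over all 16314 fitted genes). The called genes were EEF2, EIF4A2, EIF2B4, EIF3B, EIF3D, EIF3C and EIF4B, with log2 fold changes between -0.23 and -0.14. The 7 genes were 12.7% of the members tested. Over all fitted genes, 8.09% were called lower and 9.36% higher. At an unadjusted p under 0.05 (edgeR), 14 of the 55 members (25.5%) were lower and 1 of the 55 was higher, against 14.2% and 14.7% of all fitted genes. DESeq2 called 6 lower and 0 higher, beside 8.16% of its genes called lower. With the replicate number as a block 4 were lower, beside 7.07% of all genes. The 3 values of one group lay entirely below those of the other for 14 members (25.5%), all lower in the libraries labelled si-CITED2, and for 0 in the other direction. Over all fitted genes these shares were 16.1% lower and 16.4% higher. The count of members called lower rested on single libraries. Without si-Control replicate 1 it was 5 (8.09% of all genes lower in that fit), without si-Control replicate 2 it was 2 (5.38%) and without si-Control replicate 3 it was 2 (6.04%). Without si-CITED2 replicate 1 it was 7 (6.72%), without si-CITED2 replicate 2 it was 4 (5.37%) and without si-CITED2 replicate 3 it was 1, EEF2 (5.37%).

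The median log2 fold change of the 55 members was -0.05 (interquartile range -0.11 to -0.01), and that of all fitted genes was -0.0014 (-0.13 to 0.14). The estimate was below 0 for 46 members (83.6%), against 50.3% of all fitted genes. The largest change in either direction was 0.23 on the log2 scale. Most members were abundant, with 36 above 100 CPM in si-Control. The 95% interval lay within a 1.25-fold change either way for 51 of the 55 members, against 42.1% of all fitted genes. Among the 48 members without a call it did so for 44. The median SE of the log2 fold change was 0.057 for the members and 0.092 for all fitted genes, so smaller changes could be called among the members. The members held 2.34, 2.29 and 2.28% of all counts in si-Control and 2.18, 2.15 and 2.13% in the libraries labelled si-CITED2, so the groups did not overlap. Such shares are relative within a library, and fewer cells of a type and less RNA per cell cannot be told apart in bulk samples. Of the member counts, 43% came from EIF3C, EEF1A1, EEF2 and EEF1G, and of these EIF3C and EEF2 were called lower. The read-through symbol SENP3-EIF4A1, with 97% of the counts when summed with EIF4A1, is not a member and adds nothing to these shares. The small shift of the median depended on si-Control replicate 1. This library was the highest of its group for 35 of the 55 members (63.6%), against 35.5% of all fitted genes, and without it the median was -0.01.

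**Figure D1:**
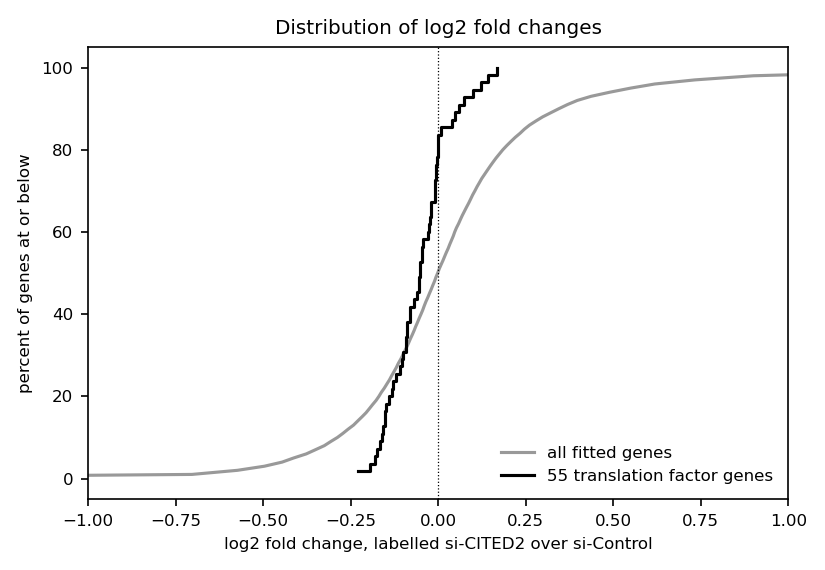
Cumulative percent of genes (y axis) at or below each log2 fold change, libraries labelled si-CITED2 over si-Control (x axis), for the 55 translation factor genes (black) and all 16314 fitted genes (grey). The black curve is steeper and spans -0.23 to 0.17, and 83.6% of it lies below 0.

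**Figure D2:**
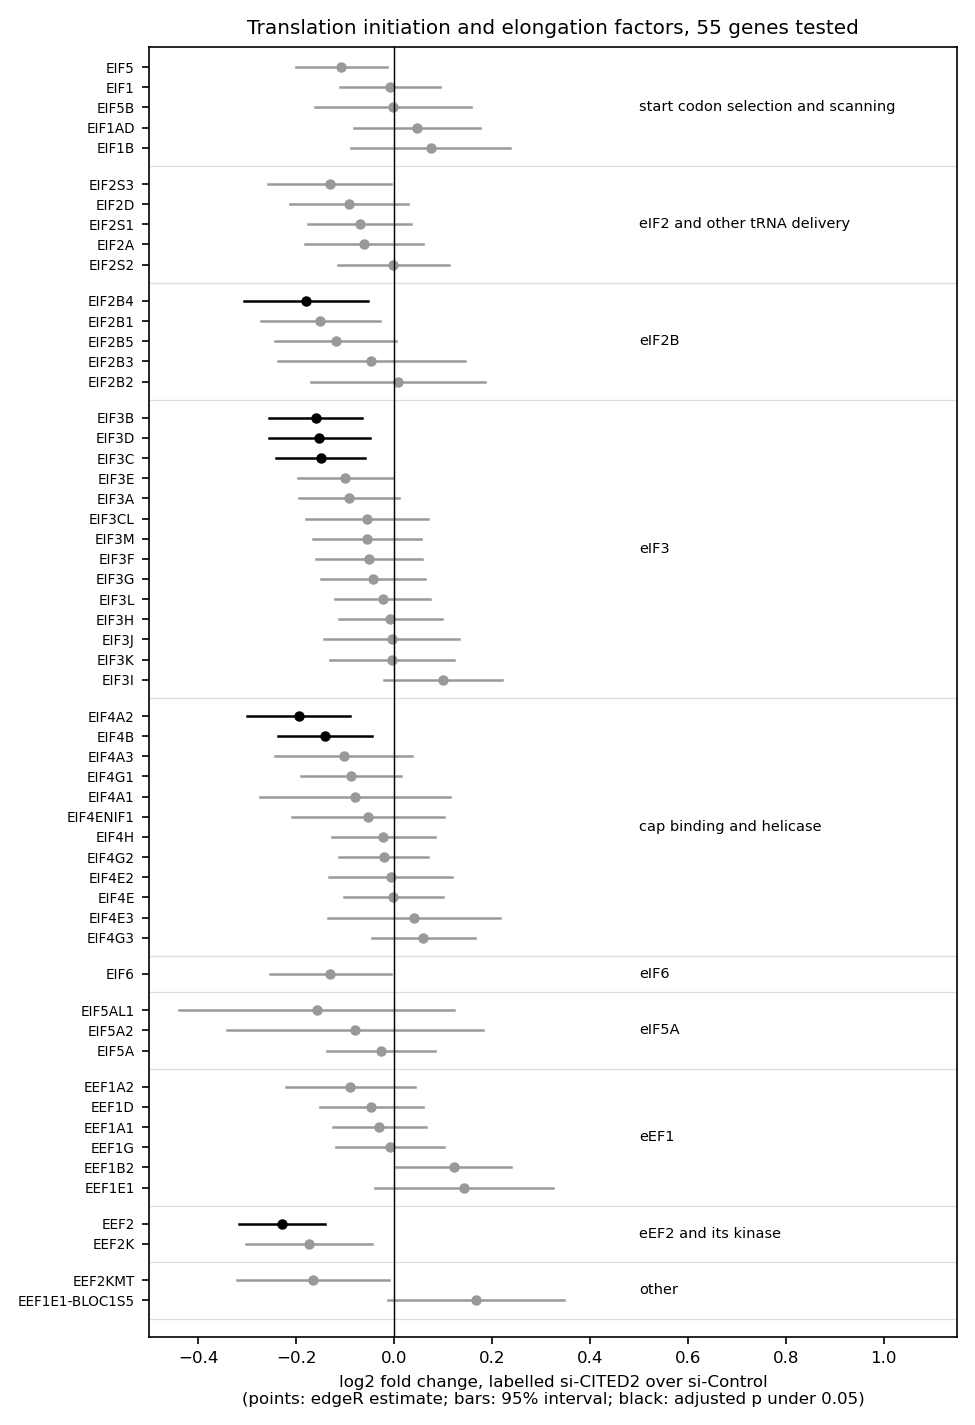
Log2 fold change of each tested member (point) with its 95% interval (bar), grouped by role, black where the adjusted p was under 0.05. The 7 black genes all lie left of 0, 3 of them in eIF3, 2 among the cap binding and helicase factors, 1 in eIF2B and 1 is EEF2.

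The sequences around the transcription start are shown because some of the called genes start with a TOP tract and others do not. Promoter sequences of RefSeq (GRCh38.p14) matched 46 of the 56 members. A tract was taken as a C at an annotated start followed by at least 4 pyrimidines (C or T) on the strand of the gene. It was found in 12 members (26.1%), against 7% of the 11455 fitted genes with a promoter sequence. Of the 7 called genes, 4 had it, and of the 39 other members 8 had it. The lines run 5′ to 3′ from 10 bases before the start to 20 bases from it, with the tract in capitals, first for the 7 called genes with and without a tract (EIF2B4 has 2 annotated starts) and then for uncalled genes with a tract.
EEF2, chr19:3985444-3985473, minus strand: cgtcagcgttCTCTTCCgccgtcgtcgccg
EIF3D, chr22:36529147-36529176, minus strand: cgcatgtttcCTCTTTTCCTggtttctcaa
EIF4A2, chr3:186783567-186783596, plus strand: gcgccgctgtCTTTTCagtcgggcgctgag
EIF4B, chr12:53006446-53006475, plus strand: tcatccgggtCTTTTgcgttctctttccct
EIF3B, chr7:2354817-2354846, plus strand: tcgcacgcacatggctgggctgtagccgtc
EIF3C, chr16:28688548-28688577, plus strand: tcccacccccgtggcaggcagccctgcacc
EIF2B4, downstream start, chr2:27370006-27370035, minus strand: gcctgccggcggatccgtggtcatgccaac
EIF2B4, upstream start, chr2:27370319-27370348, minus strand: tgaccacggcgggcggagcctaggactgag
EEF1A1, chr6:73521013-73521042, minus strand: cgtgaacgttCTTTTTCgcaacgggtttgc
EEF1B2, chr2:206159885-206159914, plus strand: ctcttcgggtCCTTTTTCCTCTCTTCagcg
EIF3F, chr11:7987327-7987356, plus strand: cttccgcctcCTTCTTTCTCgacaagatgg
EIF3K, chr19:38619178-38619207, plus strand: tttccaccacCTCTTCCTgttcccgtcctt
EIF3M, chr11:32583821-32583850, plus strand: gcccagttccCTTTTCCggtcggcgtggtc

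Of the 12 members with a tract, 11 had an estimate below 0, as did 25 of the 33 tested members without it and 49.7% of the 799 fitted genes with a tract. The 4 called members with a tract were all lower. EEF1A1 and EEF2 start with tracts of 7 bases each, and only EEF2 was called, while EEF1B2, with the longest tract among the members at 16 bases, was the exception with an estimate above 0 (0.12, not called). The other members with a tract were EIF2A, EIF2D and EIF2S3, none of them called. The 12 members with a tract had a median log2 fold change of -0.08 and the 33 tested members without it one of -0.03. Over all fitted genes with a promoter sequence the medians were 0.0023 with and 0.00056 without a tract. Of all fitted genes with a tract, 9.39% were called lower and 8.64% higher, near the 8.09% and 9.36% of all fitted genes. The letters GCCNNNGGC, the core of sites for AP-2 factors, which CITED2 is known to assist, were searched in the 250 bases before and 50 bases after each start. The motif reads the same on both strands. It was found in 8 of the 46 members (17.4%), in 0 of the 7 called genes and in 37.7% of the fitted genes with a promoter sequence.

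EEF2, which encodes the GTPase that moves the ribosome by a codon after each peptide bond, showed the clearest difference. It was at 2640.3, 2662 and 2649 CPM in si-Control and at 2277, 2258 and 2248 CPM in the libraries labelled si-CITED2. The groups were far apart relative to their spread (SD 10.7 and 14.4 CPM, n = 3 each). EEF2 fell by 0.23 on the log2 scale, a change of -14.7% (SE 0.04, adjusted p = 0.000888, edgeR). It was the only member called in all 6 fits that left out a library and in every other alternative tried. EEF2K, the kinase that inactivates eEF2, was at 41.2, 43.1 and 42.6 CPM in si-Control and 38.8, 37.5 and 36.1 CPM in the libraries labelled si-CITED2. These values did not overlap either, but EEF2K missed the threshold (log2 fold change -0.17, 95% interval -0.30 to -0.04, adjusted p = 0.061, edgeR). EEF2KMT, which encodes an enzyme that methylates eEF2, had a log2 fold change of -0.16 without a call and did not overlap between the groups.

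Among the eEF1 genes 0 of 6 were called in either direction. eEF1A brings aminoacyl-tRNA to the ribosome, and eEF1B2, eEF1D and eEF1G form the complex that exchanges its nucleotide. Their median log2 fold change was -0.02. EEF1A1, the member with the most counts of this group, was at 2812, 2701 and 2633 CPM in si-Control and 2735, 2627 and 2615 CPM in the libraries labelled si-CITED2, which overlap. Its 95% interval of -0.13 to 0.07 on the log2 scale lies above the estimate for EEF2. Within each library, the log2 ratio of EEF2 to EEF1A1 counts does not depend on the scaling. It was -0.09, -0.02 and 0.01 in si-Control and -0.26, -0.22 and -0.22 in the libraries labelled si-CITED2, a difference of -0.20 without overlap (exact permutation test, two-sided, p = 0.1, the smallest that 3 against 3 allows). This ratio was chosen after the values had been seen.

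EEF1B2 leaned the other way, from 393.4, 349.3 and 341.3 CPM in si-Control to 407.6, 386.4 and 385.5 CPM in the libraries labelled si-CITED2. Its highest si-Control value lay among the values of the other group, and the log2 fold change of 0.12 did not pass (adjusted p = 0.16, edgeR). Without si-Control replicate 1 it was 0.19 and passed. EEF1A2, a paralog of EEF1A1 known for expression in muscle and nerve, was counted in every library, at 389.5, 383 and 392 CPM in si-Control and 410.6, 344.6 and 339.7 CPM in the libraries labelled si-CITED2. The latter libraries disagreed with each other, and EEF1A2 was called lower, at -0.18, only without si-CITED2 replicate 1. The log2 ratio of EEF1A1 to EEF1A2 was 2.81 ± 0.05 (SD, n = 3) in si-Control and 2.87 ± 0.12 (SD, n = 3) in the libraries labelled si-CITED2 (exact permutation p = 0.5). EEF1D, EEF1G and EEF1E1 had log2 fold changes of -0.05, -0.01 and 0.14 without a call.

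**Figure D3:**
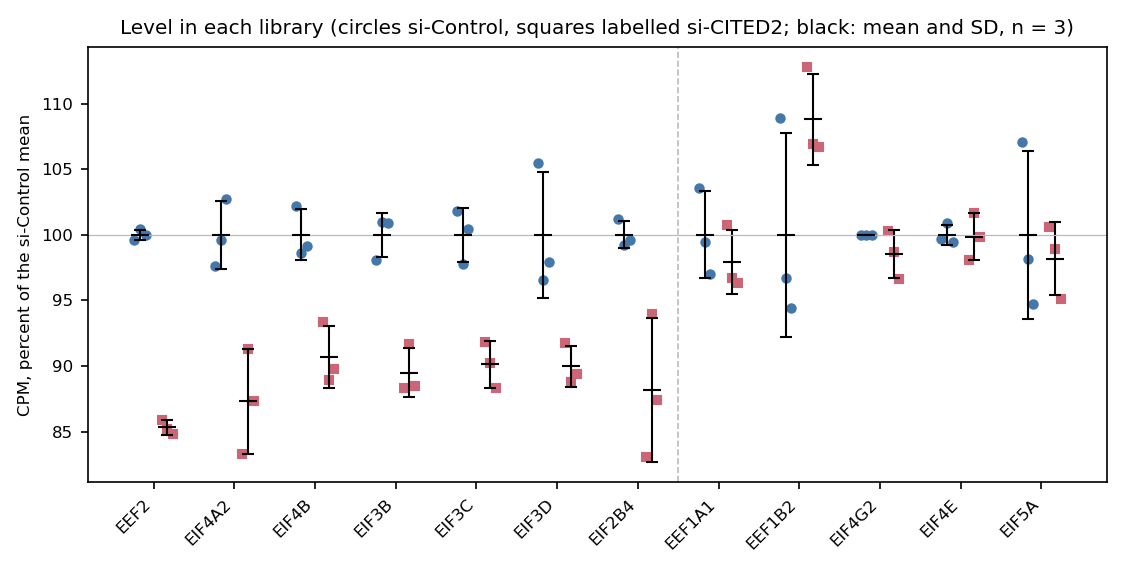
Level of 12 members in each library (y axis, CPM as percent of the si-Control mean, not starting at 0), with circles for si-Control, squares for the libraries labelled si-CITED2, and black bars for mean and SD (n = 3). For the 7 called genes left of the dashed line all squares lie below all circles, while EEF1A1, EEF1B2, EIF4G2, EIF4E and EIF5A on the right overlap between the groups.

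Among the eIF3 genes, 3 of 14 were called lower and 0 higher, beside 8.09% and 9.36% of all fitted genes, and the median log2 fold change of the group was -0.05. EIF3B, which encodes a core subunit of the scaffold, was at 509.4, 524.6 and 524.2 CPM in si-Control and 458.8, 475.9 and 459.4 CPM in the libraries labelled si-CITED2 (log2 fold change -0.16, SE 0.04, adjusted p = 0.0204, edgeR). EIF3D, whose product can itself bind the mRNA cap, was at 322.4, 295.1 and 299.3 CPM against 280.4, 271.4 and 273.2 CPM (-0.15, adjusted p = 0.0411, edgeR). EIF3C, another core subunit, was at 2957, 2840.2 and 2917 CPM against 2667, 2621 and 2565 CPM (-0.15, adjusted p = 0.0235, edgeR). None of the 3 overlapped between the groups, and their changes ran from -10.5 to -9.88%. They were called in 3, 1 and 2 of the 6 fits without a library for EIF3B, EIF3D and EIF3C. EIF3D lost its call without si-Control replicate 1, 2 or 3 and without si-CITED2 replicate 2 or 3. EIF3B lost its call without si-Control replicate 2 or 3 and without si-CITED2 replicate 3, and EIF3C lost its call without those libraries and without si-CITED2 replicate 2, with log2 fold changes between -0.17 and -0.13 in these fits.

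The other eIF3 genes showed no call. EIF3E was at 344.1, 328.6 and 336.0 CPM in si-Control and 321.0, 311.1 and 309.0 CPM in the libraries labelled si-CITED2, with no overlap but an adjusted p of 0.157 (edgeR). EIF3A, the largest subunit gene, had a log2 fold change of -0.09 with overlapping groups. EIF3F, EIF3G, EIF3H, EIF3J, EIF3K, EIF3L and EIF3M lay between -0.06 and 0, and EIF3I was at 0.10.

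**Figure D4:**
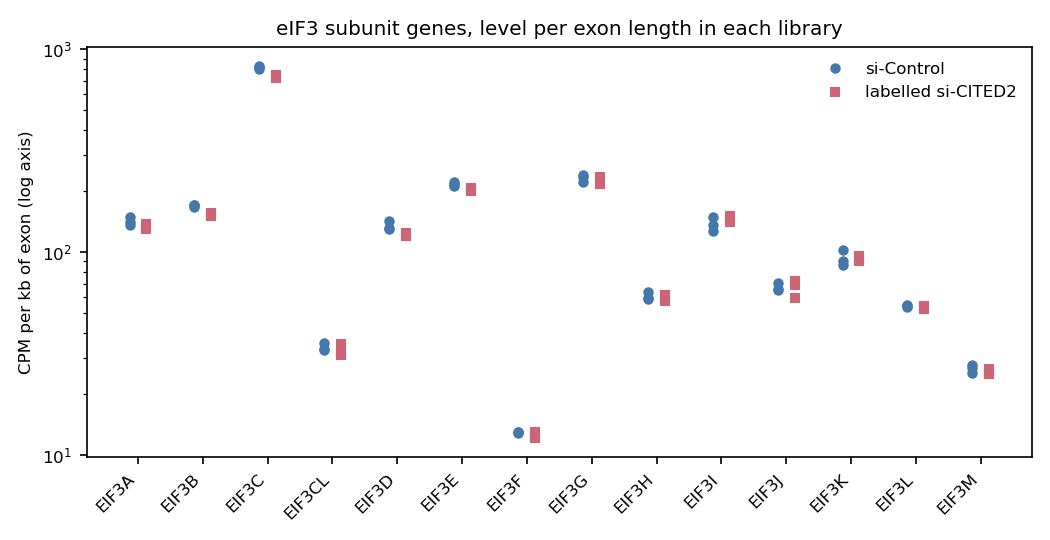
CPM per kb of exon (y axis, log scale) of the 14 eIF3 genes in each library, circles for si-Control and squares for the libraries labelled si-CITED2. EIF3C stands at 817 in si-Control, above the 12 other subunit genes at 12.9 to 233, and its near-identical copy EIF3CL stands at 33.9.

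Per length, the level of EIF3C stood apart from that of its partners. With the exon lengths of GENCODE 29, EIF3C was at 817 CPM per kb in si-Control, while the 12 other subunit genes apart from EIF3CL ranged from 12.9 (EIF3F) to 233 (EIF3G) with a median of 114. The length of a gene joined the exons of all its protein-coding transcripts, such as 7548 bases for EIF3F and 1103 bases for EIF3G. The spread between subunit genes depends on this choice of length. EIF3CL is a near-identical copy of EIF3C. Of the 50-base words in the EIF3CL transcripts, 97.2% also occur in EIF3C, and 45.4% of those of EIF3C also occur in transcripts of other genes. How the authors counted reads that match both is not given in the sources used here, so both levels are uncertain. EIF3CL was at 102.9, 109.8 and 101.8 CPM in si-Control and 109.0, 96.5 and 97.5 CPM in the libraries labelled si-CITED2, which overlap. With the counts of both genes summed, the log2 fold change was -0.15 (adjusted p = 0.0262, edgeR). This sum was chosen after the values had been seen.

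The cap binding and helicase group had 2 of 12 tested genes called lower and 0 higher, beside the same 8.09% and 9.36% of all fitted genes. EIF4A2, a paralog of the RNA helicase eIF4A1, was at 228.0, 232.7 and 240 CPM in si-Control and 194.5, 213.3 and 204.0 CPM in the libraries labelled si-CITED2. Every value of the first group exceeded every value of the second, and EIF4A2 fell by 0.20 on the log2 scale (SE 0.05, adjusted p = 0.0115, edgeR). It was called in 5 of the 6 fits without a library, and the log2 fold change of EIF4A2 without si-CITED2 replicate 3 was -0.19 (adjusted p = 0.0502, edgeR). EIF4B, a cofactor that stimulates the helicase, was at 780.3, 753.0 and 756.6 CPM against 712.5, 678.8 and 685.0 CPM (log2 fold change -0.14, adjusted p = 0.0394, edgeR). The groups did not overlap, but the call held in 1 of the 6 fits without a library, the one without si-CITED2 replicate 1. EIF4H, which resembles EIF4B in function, was at -0.02 on the log2 scale with overlapping groups.

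The cap-binding protein and the scaffolds were not called. EIF4E, which encodes the cap-binding subunit, was at 122.9, 124.4 and 122.6 CPM in si-Control and 120.9, 125.3 and 123.1 CPM in the libraries labelled si-CITED2. Its log2 fold change was -0.0018 with a 95% interval of -0.10 to 0.10. EIF4G1, the main scaffold, was at 1289.8, 1326 and 1331 CPM in si-Control and at 1304, 1232 and 1176 CPM in the libraries labelled si-CITED2, with overlap (log2 fold change -0.09, adjusted p = 0.246, edgeR). EIF4G2, a related scaffold that does not bind eIF4E, was at 1158, 1159 and 1158 CPM in si-Control and 1162, 1143 and 1119.5 CPM in the libraries labelled si-CITED2. EIF4G3 was at 0.06 on the log2 scale without a call. The log2 ratio of EIF4G1 to EIF4G3 counts within a library was 3.22, 3.17 and 3.19 in si-Control and 3.15, 3.05 and 2.92 in the libraries labelled si-CITED2, which do not overlap (difference -0.15, exact permutation p = 0.1, the smallest possible). Of the 8 paralog ratios planned, this was the only one without overlap, and the exact permutation p was between 0.2 and 1 for the other 7. With 8 such tests no adjusted p can fall below 0.1.

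EIF4E2 and EIF4E3, which encode relatives of eIF4E, had log2 fold changes of -0.0072 and 0.04. EIF4ENIF1, which encodes the transporter that binds eIF4E, was at -0.05, and EIF4A3, a helicase of the exon junction complex, at -0.10 with overlapping groups. EIF4E1B, which is known from oocytes, had 6 counts in si-Control replicate 1 and 0 in the other 5 libraries, and was the member left out by the filter.

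EIF4A1, the main helicase gene of translation, was split over 2 symbols. The EIF4A1 row held 910, 858 and 561 counts in the si-Control libraries against 487, 757 and 665 in the libraries labelled si-CITED2. The read-through symbol SENP3-EIF4A1, which spans SENP3 and EIF4A1, held 27543, 29076 and 18537 counts in the si-Control libraries against 17763, 22893 and 19908 in the libraries labelled si-CITED2, or 97% of the sum. SENP3 itself was at 19.5 to 20.8 CPM in si-Control. The EIF4A1 row thus does not measure this gene on its own. With both symbols summed, the log2 fold change was -0.09 (95% interval -0.20 to 0.01, adjusted p = 0.224, edgeR), and the log2 ratio to EIF4A2 was 2.12 ± 0.12 (SD, n = 3) in si-Control and 2.22 ± 0.05 (SD, n = 3) in the libraries labelled si-CITED2 (exact permutation p = 0.3). The ratios overlapped between the groups. This test cannot go below 0.1 with 3 against 3, so it could not decide whether EIF4A1 and EIF4A2 differ. The sum and this ratio were chosen after the values had been seen. EEF1E1, whose product belongs to the multi-tRNA synthetase complex, and its read-through EEF1E1-BLOC1S5 also overlap, and 93.5% of the 50-base words of the latter are shared. Their summed log2 fold change was 0.15 (adjusted p = 0.106, edgeR), and this sum was also chosen after the values had been seen.

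The eIF2B genes encode the exchange factor of eIF2. EIF2B4, the gene of its delta subunit, was at 62.1, 60.9 and 61.2 CPM in si-Control and 51.0, 57.7 and 53.7 CPM in the libraries labelled si-CITED2. The groups did not overlap, and EIF2B4 was called with an adjusted p of 0.0465 (edgeR, log2 fold change -0.18). The call was lost in DESeq2 (adjusted p = 0.0567) and in 5 of the 6 edgeR fits without a library, those without si-Control replicate 1, 2 or 3 or si-CITED2 replicate 1 or 3, with log2 fold changes from -0.19 to -0.14. EIF2B1 had no overlap either, at 60.03, 56.1 and 59.9 CPM against 51.3, 53.6 and 53.4 CPM, without a call (adjusted p = 0.0852, edgeR). EIF2B5, the catalytic subunit and the member with the most counts in this group, was at -0.12 on the log2 scale, EIF2B3 at -0.05 and EIF2B2 at 0.0081, all with overlapping groups.

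The 3 subunits of eIF2 itself were not called. EIF2S1, the gene of the alpha subunit that stress kinases phosphorylate, was at 252.2, 231.3 and 229.8 CPM in si-Control and 228.4, 224.0 and 227.3 CPM in the libraries labelled si-CITED2, which do not overlap by a narrow gap, with a log2 fold change of -0.07 (95% interval -0.18 to 0.04). EIF2S2, with the most counts in this group, was at -0.0013 and EIF2S3 at -0.13. EIF2S3 was called lower, at -0.20, only without si-Control replicate 1. EIF2A and EIF2D, alternative tRNA carriers, were at -0.06 and -0.09, and of these EIF2D did not overlap between the groups.

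The factors of start codon selection and subunit joining were not called either. EIF5, the GTPase-activating partner of eIF2 and the member of this group with the most counts, was at 592.3, 583.2 and 577.5 CPM in si-Control and 534.6, 552.8 and 539.5 CPM in the libraries labelled si-CITED2. These did not overlap, but EIF5 missed the threshold (log2 fold change -0.11, adjusted p = 0.112, edgeR). EIF1, which guards against wrong start codons, was at -0.0089, its paralog EIF1B at 0.07 and EIF5B, the subunit-joining GTPase, at -0.0014. EIF1AD, placed in this group by its symbol alone, was at 0.05. EIF6, which keeps the large subunit from joining early, was at 160.3, 145.0 and 138.7 CPM in si-Control and 128.8, 136.3 and 140.8 CPM in the libraries labelled si-CITED2, overlapping by a single pair of values (-0.13, adjusted p = 0.151, edgeR).

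eIF5A, named as an initiation factor, acts in elongation and termination. EIF5A was at 764.9, 700.9 and 676.7 CPM in si-Control and 718.2, 706.4 and 679.2 CPM in the libraries labelled si-CITED2 (log2 fold change -0.03). EIF5A2, its paralog, was at 7.22 to 9.28 CPM across all libraries, the lowest of the tested members. EIF5AL1, a copy of EIF5A, was at 27.8, 19.2 and 18.3 CPM against 17.1, 19.96 and 21.6 CPM, and the 95% interval of its log2 fold change, -0.44 to 0.12, was among the 4 of uncalled members that went beyond a 1.25-fold change. EIF5AL1 shares 15.4% of its 50-base words with other genes. Over 10% of the 50-base words were shared with other genes for 17 of the 56 members, among them EEF1G at 95.8%. Among the called genes, EEF2, EIF3B and EIF3D shared 0%, EIF2B4 0.05%, EIF4A2 7.4%, EIF4B 19.4% and EIF3C 45.4%.

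Other genes of translation were counted in the same fit. Of 35 regulators and partners of these factors, all in the fit, 3 were called lower and 4 higher (edgeR), with log2 fold changes from -0.35 to 0.38 and a median of -0.03. These counts stand beside 8.09% lower and 9.36% higher over all fitted genes, and shares this near the background are no result about the list. PPP1R15A, the stress-induced subunit of the phosphatase that reactivates eIF2, was at 53.4, 58.3 and 61.0 CPM in si-Control and 45.1, 44.9 and 45.2 CPM in the libraries labelled si-CITED2 (-0.35, adjusted p = 0.000662, edgeR). DHPS, the first enzyme of the hypusine modification of eIF5A, fell by 0.24 on the log2 scale. LARP1, a protein that binds TOP mRNAs, fell by 0.16, and was named after its value had been seen. DENR, a factor of reinitiation and ribosome recycling, was at 185.7, 183.5 and 171.5 CPM in si-Control and 220.9, 214.6 and 209.6 CPM in the libraries labelled si-CITED2 (0.25, adjusted p = 0.00159, edgeR). PAIP2B and PAIP2, which encode inhibitors of the poly(A)-binding protein, rose by 0.34 and 0.19, and PDCD4, an inhibitor of eIF4A, rose by 0.20; PAIP2 and PDCD4 were named after their values had been seen. Without single libraries, the counts of this list were 1 to 5 lower and 1 to 3 higher. They fell to 1 lower without si-Control replicate 2 or 3 or si-CITED2 replicate 2, rose to 5 lower without si-Control replicate 1, and fell to 1 higher without those 3 libraries or si-CITED2 replicate 3 and to 2 higher without si-CITED2 replicate 1.

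Of 22 genes of cytosolic tRNA synthetases and their scaffold, which charge tRNAs with amino acids, 3 were called lower and 0 higher (edgeR), beside 8.09% and 9.36% of all fitted genes, with log2 fold changes from -0.30 to 0.13 and a median of -0.10. FARSB was at 151.6, 153.2 and 152.3 CPM in si-Control and 121.5, 125.6 and 123.3 CPM in the libraries labelled si-CITED2 (log2 fold change -0.30, adjusted p = 0.000204, edgeR). Its partner FARSA, with which it forms the phenylalanine enzyme, fell by 0.18, and AARS, the alanine enzyme, by 0.15. The count fell to 1 without si-CITED2 replicate 2 or 3. Of 12 mitochondrial translation factors 0 were called in either direction, with log2 fold changes from -0.15 to 0.08 and a median of -0.04. A difference between these lists and the initiation and elongation factors was not tested.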

How the data were processed

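For each PC3 culture the authors deposited a table of gene symbols with whole-number read counts that had not been normalized. The submitters' processing notes name TopHat, edgeR and the build hg19. The counting program, the annotation, strand use and the handling of reads shared between genes are not given in the sources used here. Depth was 19508925 to 28936374 counts per library, and floors cover counting error only. Of repeated symbols only the most counted row entered (0.0821% of counts left out).

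Counts were fitted in R 4.3.3 with edgeR 4.0.16 (filterByExpr, TMM, glmQLFit and glmQLFTest, all 6 libraries, no replicate block, Benjamini-Hochberg over 16314 genes, called at an adjusted p under 0.05). Standard errors and 95% intervals were taken from the F statistic. DESeq2 1.42.0, other scalings and filters, summed rows, the replicate number as a block and leaving out each library were alternatives. The scripts were tested on simulated data, where recovery was required only for planted changes larger than any change of a member reported here. No replicates were counted as a single library (pairwise chi-square over degrees of freedom at least 2.89), and p-values measure the spread between these cultures. The 8 planned paralog ratios used counts plus 0.5 and exact two-sided permutation. Exon lengths and 50-base words came from GENCODE 29 (GRCh38, not the authors' build).

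The members and lists were chosen with earlier results of these data known. Named were all called members, the member with most counts in each role, the member left out by the filter, paralogs and near-identical pairs, and up to 4 called genes of each other list with the largest changes. Further genes are named to account for every member.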

Additional observations from a re-analysis of the deposited data

How the results depend on the processing

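The number of called translation factor genes rested on all libraries. It was 7 lower and 0 higher, was 6 to 8 lower and 0 higher under DESeq2, the other scalings and filters and summed repeat rows, and 1 to 7 lower and 0 to 2 higher when a library was left out. The 2 higher genes, EEF1B2 and EIF3I, passed without si-Control replicate 1. The replicate numbers did not pair the samples (correlations of deviations -0.04, 0.03 and -0.01 for numbers 1, 2 and 3, and not every sample correlated best with its own number). With the replicate number as a block, 4 members were called lower, and EIF2B4, EIF3D and EIF4B missed the threshold with adjusted p-values of 0.0552 to 0.0713. Block values changed no other call of a member, and the block kept the CITED2 call.

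The median log2 fold change of the members was -0.0703 on library size alone and ranged from -0.0773 to -0.0124 when a library was left out. It was below 0 in every alternative tried. The log2 fold change of CITED2 was 0.22 on library size alone (adjusted p = 0.0518, edgeR) and at 0.17 to 0.29 without single libraries. In the other lists, regulators and partners gave 1 to 5 lower and 1 to 3 higher without single libraries, and tRNA synthetases 1 to 4 lower. EEF2K passed on library size alone (-0.19). The cause of these movements was not tested. An uncalled gene whose estimate was smaller than its standard error was given no direction. EIF4E1B, with 6 counts in a single library, was too low to be tested.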
